A study of Mus musculus with 10 samples.

Results

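The proteasome subunit genes were taken as every gene whose symbol begins with Psm, a letter from a to g and a digit. This rule found 49 of the 24608 symbols in the count table, and 1 further symbol ending in -ps, a pseudogene name, was left out. Of the 49, 48 are subunits, activators, an inhibitor or assembly chaperones of the proteasome, and the other is Psmc3ip, a meiotic recombination factor that shares only the symbol. The 48 genes comprised 7 alpha and 8 constitutive or thymic beta genes of the 20S core (the thymic one is Psmb11), 3 immunoproteasome genes, 6 ATPase and 14 non-ATPase genes of the 19S group, 5 activator genes, the inhibitor Psmf1 and 4 assembly chaperones of the core. The 19S group was formed by symbol (Psmc and Psmd). It leaves out the 19S subunits Sem1 and Adrm1, which are counted below among ubiquitin-proteasome partners. The group includes assembly chaperones of the 19S base, such as Psmd5 and Psmd9, beside subunits of the cap. They were measured in muscle satellite cells (MuSCs, the stem cells of skeletal muscle) of control mice (Trpm7+/+; Pax7CreERT2/+; Rosa26YFP) and Trpm7 cKO mice (Trpm7flox/flox; Pax7CreERT2/+; Rosa26YFP), with 5 libraries per genotype. TRPM7 is a channel that carries Mg2+ and other divalent ions. Mice of both genotypes were C57BL6 adults, received tamoxifen to activate Cre, carried the same Cre allele and YFP reporter, and were injured with cardiotoxin (CTX). YFP-positive cells were sorted 3 days after injury, 3000 per library, so that deletion relied on an inducible Cre expressed from Pax7 and was not scored cell by cell. The names of Trpm7 cKO replicates 4 and 5 share a number whose meaning is not stated, so these libraries may not come from unrelated animals. Nothing in the labels says that the other libraries come from separate animals, so p-values measure the spread between libraries.

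The proteasome is the protease that removes most ubiquitin-tagged proteins from the cytosol and nucleus. Its 20S core is a barrel of alpha rings, which gate entry, around beta rings, which carry the catalytic sites. The 19S cap binds ubiquitin chains, removes them, and unfolds and feeds the substrate with its ring of ATPases. In cells exposed to interferon, Psmb8, Psmb9 and Psmb10 replace the catalytic subunits Psmb5, Psmb6 and Psmb7 to form the immunoproteasome, whose products favour antigen presentation, and the PA28 activator of Psme1 and Psme2 can dock in place of the cap. In muscle, the ubiquitin-proteasome system is known for breaking down myofibrillar proteins in atrophy and for the turnover of regulators of the cell cycle and of myogenesis.

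Promoter sequence was available for 41 of the 48 genes in RefSeq's table for GRCm38.p6, which gives 250 bases before and 50 after the start of each gene. These starts can differ from the gene positions given below, which came from GENCODE. The windows shown for Psmb8, Psme1 and Psme4 lie inside the GENCODE spans of those genes. Windows of 30 bases are shown for members with large changes, or with roles described below, that held 1 of 4 motifs searched on both strands, with the motif in capitals. The motifs were CCAAT, the antioxidant response element TGACNNNGC, which NRF1 and NRF2 can bind, and the interferon-linked elements TTCNNNGAA (GAS) and GAAANNGAAA (ISRE), and a match on the opposite strand is printed as its reverse complement.
Psma7, CCAAT, chr2:180042643-180042672, minus strand: gcctgcctgtcgCCAATgcgcgctcgagtc
Psmd14, CCAAT, chr2:61711686-61711715, plus strand: ccccggcggactCCAATtggcggtagaaga
Psme3, CCAAT reversed, chr11:101316187-101316216, plus strand: ggagtgccggcgATTGGctgtgacgcaact
Psmb6, TGACNNNGC, chr11:70525338-70525367, plus strand: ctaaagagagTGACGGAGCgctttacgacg
Psme4, TGACNNNGC reversed, chr11:30771758-30771787, plus strand: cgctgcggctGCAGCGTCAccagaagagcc
Psmb8, TTCNNNGAA, chr17:34198088-34198117, plus strand: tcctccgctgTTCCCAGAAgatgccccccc
Psme1, GAAANNGAAA reversed, chr14:55578493-55578522, plus strand: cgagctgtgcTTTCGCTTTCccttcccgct
Of the 41 promoters, 14 held CCAAT (34.1%, against 41.1% of 27025 genes with a promoter), 6 held TGACNNNGC (14.6% against 14.0%), 5 held GAAANNGAAA (12.2% against 3.99%) and 3 held TTCNNNGAA (7.32% against 9.55%). These matches describe letters and not binding. The promoters of Psma5 and Psme2 held none of the 4 motifs in this window.

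The libraries of the 2 genotypes differed before any gene was compared. Control libraries held 914361 to 1097709 counts and Trpm7 cKO libraries 205986 to 581121, without overlap, and depth cannot be told apart from genotype in the raw counts. Trpm7 itself had 66 to 84 counts in control and 10 to 55 in Trpm7 cKO libraries. Per library total this was 61.0, 69.2, 84.4, 76.9 and 72.2 CPM in control and 72.4, 102, 78.7, 48.2 and 48.5 CPM in Trpm7 cKO libraries, which overlap, with a log2 fold change of -0.09 ± 0.20 (SE, n = 5 and 5, edgeR adjusted p = 0.723). Counts at the 3′ end do not show whether an exon was deleted, so they do not check the genotype. MuSC markers were present in every library, with summed shares of 0.405% to 0.486% of counts in control and 0.310% to 0.496% in Trpm7 cKO libraries. Within that list of 18, 15 genes were tested by edgeR. Of these, 4 fell (26.7%, against 24.1% of all tested genes), among them Myod1 (-2.01 on the log2 scale) and Chrna1 (-2.61). A further 7 rose (46.7%, against 24.6%), among them Pax7 (1.19). Leukocyte markers summed to 0.0423% to 0.0747% of counts in control and 0.172% to 0.787% in Trpm7 cKO libraries. Of the 34 listed leukocyte genes, 24 were tested and all 24 of those rose (edgeR's quasi-likelihood test, adjusted p below 0.05), where 24.6% of all tested genes rose. Some passed the filter on low counts only through the Trpm7 cKO libraries, such as Ccr2 and Adgre1. Their control means of 2.31 and 4.85 normalized CPM lay below the filter's limit of 13.4 CPM, so this count is no independent support. Cd3e, Cd79a and Nkg7, markers of T, B and natural killer cells, were at 0 in every control library. They had at most 2 counts in any Trpm7 cKO library, under a floor of 3 counts. Endothelial markers summed to 0.000603% to 0.00612% in control and 0.0119% to 0.0578% in Trpm7 cKO libraries. Both tested genes of the 10 listed rose, Pecam1 and Cdh5. At control means of 5.29 and 4.07 normalized CPM, they too were tested through the Trpm7 cKO libraries. Fibroadipogenic markers overlapped between the genotypes at 0.104% to 0.190% and 0.163% to 0.412%. Of the 10 listed, 6 were tested and 5 rose (83.3%, against 24.6% of all tested genes). Pi16 was at 0 in every control library and had at most 1 count in any Trpm7 cKO library. Dpt, at a control mean of 10.3 normalized CPM, passed the filter through the Trpm7 cKO libraries. In bulk RNA of this kind, fewer cells of a type and less RNA per cell cannot be told apart.

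Of the 33 tested genes of the constitutive 20S core and the 19S group, 18 fell in Trpm7 cKO MuSCs (54.5%, against 24.1% of all tested genes) and 0 rose (against 24.6%). Sem1, a 19S subunit outside this group by symbol, rose by 0.33 on the log2 scale (edgeR adjusted p = 0.04997). The activator gene Psme2 rose. The immunoproteasome gene Psmb10 passed narrowly (edgeR adjusted p = 0.0472) with overlapping groups, and its call was lost in several fits that left out 1 library. Psmb8 also stood higher, but it passed the filter on low counts only through the Trpm7 cKO libraries, so its call below is a description. Of the 48 proteasome genes, 44 passed the filter on low counts and were tested among 7753 genes. In edgeR's quasi-likelihood fit, with p-values adjusted over all genes by Benjamini-Hochberg, 22 of the 44 fell (50%), where 24.1% of all tested genes fell, and 3 rose (6.82%), where 24.6% of all tested genes rose. The median log2 fold change of the 44 genes was -0.46 and that of all tested genes was -0.01. Past a log2 fold change of 1.5 as well, the 2 that fell were Psme3 and Psmd14 (4.55% of members, 3.53% of all genes) and the 1 that rose was Psmb8 (2.27% of members, 8.49% of all genes). Normalized CPM (CPM on library totals scaled by TMM factors) did not overlap between genotypes for 20 members with control above (45.5%, against 17.9% of all genes) and for 2 with Trpm7 cKO above (4.55%, against 16.6%). All 22 genes that fell kept a negative sign in each of the 10 fits that left out 1 library. In these, 20 to 23 members fell, where 20.5% to 23.6% of all genes fell. With the leukocyte marker score as a covariate, 1 member fell, Psme3 (log2 fold change -1.84, adjusted p = 0.0190), and 0 rose, where 1.81% of all genes fell and 5.13% rose. The score ran from 3.75 to 4.40 in control and from 5.59 to 7.63 in Trpm7 cKO libraries, without overlap. This fit therefore has little power to tell the score apart from genotype, and the median log2 fold change of the members in it was -0.62. With library totals scaled on MuSC markers 10 members fell, and with counts thinned to the smallest library 14 of 38 did, where 12.9% and 22.3% of all genes fell. In Trpm7 cKO replicate 2, the library of that genotype with the lowest leukocyte score, all 22 genes were below every control library. These genes were called in a fit that included this library, and its score of 5.59 lay above the highest control score of 4.40. The comparison therefore cannot tell leukocytes apart from genotype.

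**Figure D1:**
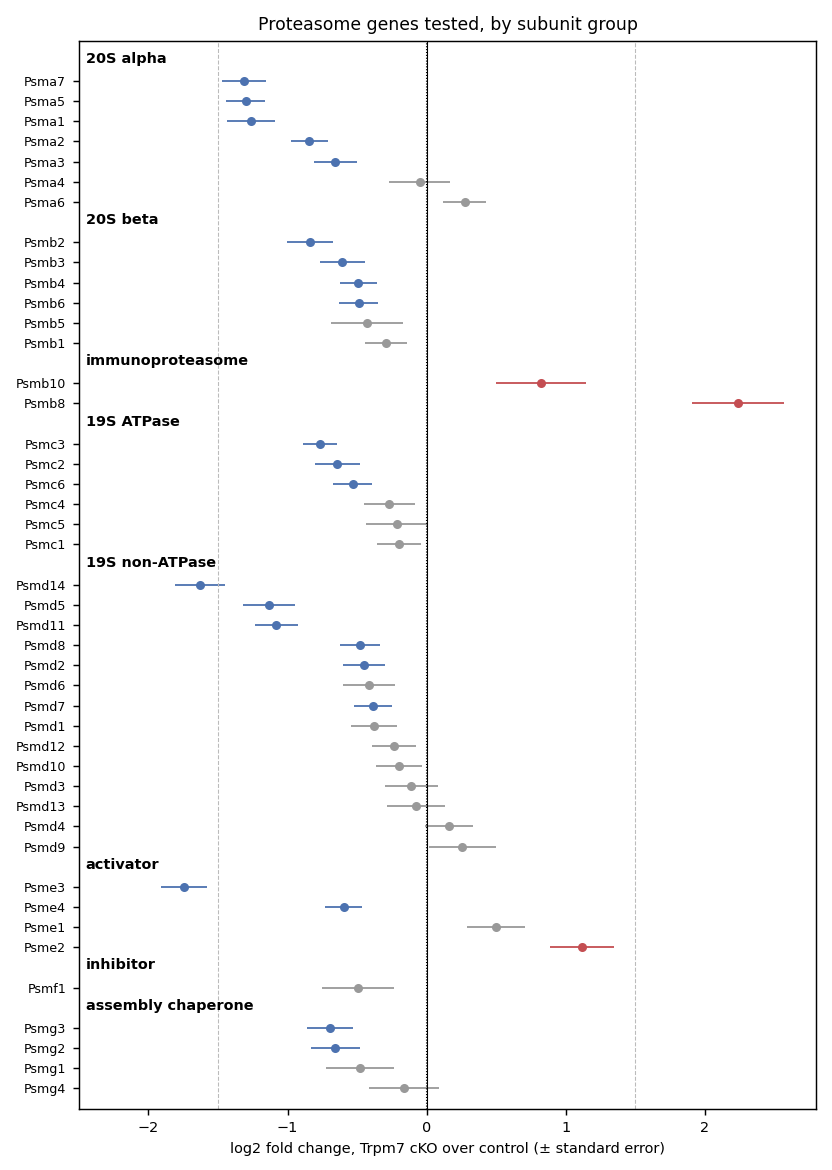
Log2 fold change, Trpm7 cKO over control, of the 44 tested proteasome genes by subunit group, with the standard error derived from edgeR's test statistic. Blue points fell and red points rose at an adjusted p below 0.05, grey points did not pass, and dashed lines mark a log2 fold change of 1.5 either way. The constitutive 20S and the 19S hold blue and grey points, and the red points are Psmb8, Psmb10 and Psme2.

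The alpha ring of the 20S core held the lowest log2 fold changes of the core. Of its 7 genes, 5 fell (71.4%, against 24.1% of all tested genes) and 0 rose (against 24.6%), with a median log2 fold change of -0.84. Psma7 (chr2:180036374-180042433, minus strand, GRCm38), whose promoter window is shown above, had 576, 543, 552, 547 and 463 normalized CPM in control replicates 1 to 5. In Trpm7 cKO replicates 1 to 5 it had 155, 212, 270, 258 and 182 normalized CPM. The groups lay far apart, with the highest Trpm7 cKO library below the lowest control library. Its log2 fold change was -1.31 ± 0.16 (SE, n = 5 and 5, adjusted p = 1.35e-06, edgeR). Psma5 had 466, 387, 434, 431 and 406 normalized CPM in control and 181, 199, 161, 177 and 127 in Trpm7 cKO libraries. It fell by 1.30 ± 0.14 on the log2 scale (SE, n = 5 and 5, edgeR adjusted p = 4.50e-07), but 77.2% of the 31-base words in its last 500 transcript bases occur in pseudogenes such as Gm12989, so that its counts are uncertain where reads could be split. Psma1 (-1.26 on the log2 scale), Psma2 (-0.84) and Psma3 (-0.66) also fell, each without overlap between groups, Psma3 sharing its 3′ end with a gene on the opposite strand.

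The other 2 alpha genes did not pass the test. Psma6 had 83.5, 95.0, 102, 91.4 and 77.6 normalized CPM in control and 85.0, 118, 128, 114 and 99.3 in Trpm7 cKO libraries. These ranges overlap, and its log2 fold change was 0.27 ± 0.16 (SE, n = 5 and 5, edgeR adjusted p = 0.155). Psma4 had 63.2 to 89.8 normalized CPM in control and 36.5 to 105 in Trpm7 cKO libraries, wider than and around the control range, at a log2 fold change of -0.05 (edgeR adjusted p = 0.871). Both occupy the same ring as Psma7. In 3′ libraries each molecule captured gives at most about 1 count, whatever the length of the transcript. Capture and read assignment can differ between genes, so a ratio of counts is not a ratio of molecules. Counts of Psma7 per 100 counts of Psma6 were 689, 572, 542, 599 and 597 in control and 183, 180, 211, 226 and 183 in Trpm7 cKO libraries, a within-library ratio that did not overlap between groups and does not depend on library size.

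**Figure D2:**
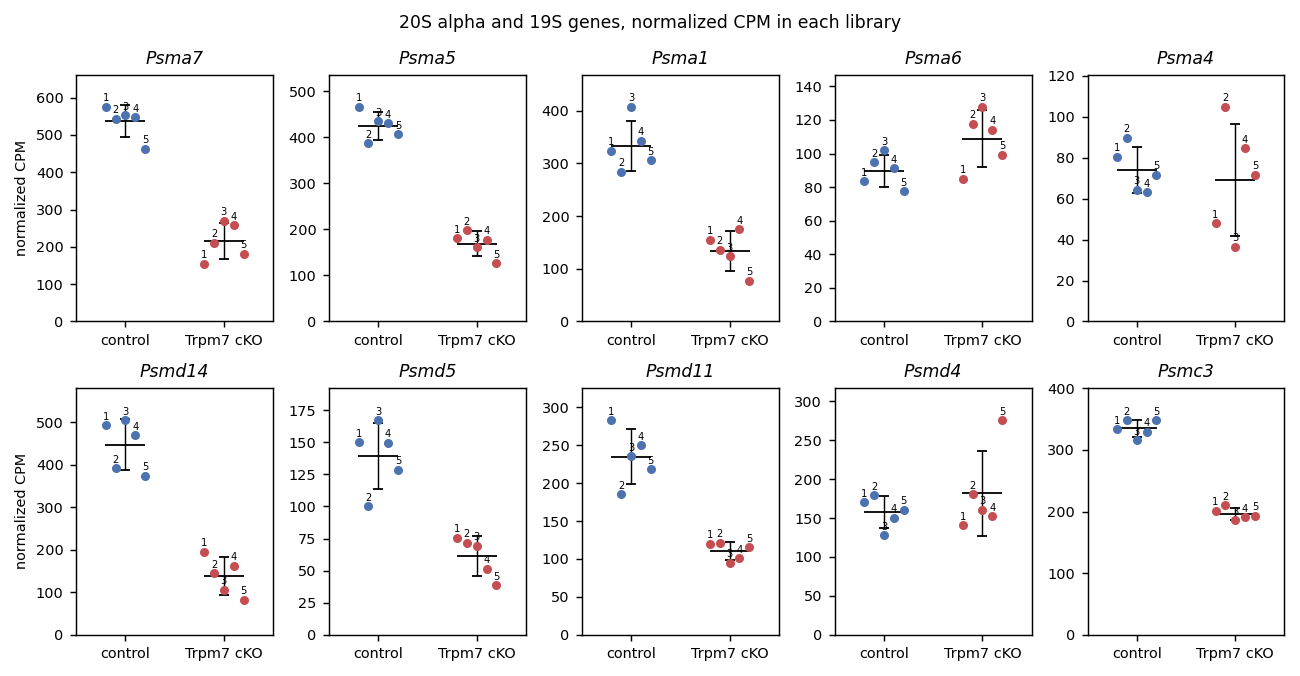
Normalized CPM in each library, from 0, for 5 genes of the 20S alpha ring and 5 of the 19S group, with numbered points for replicates and bars for the mean and SD of 5 libraries. Psma7, Psma5, Psma1, Psmd14, Psmd5, Psmd11 and Psmc3 do not overlap between groups, and Psma6, Psma4 and Psmd4 do.

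Among the beta genes of the constitutive core, 4 of 6 tested fell (66.7%, against 24.1% of all tested genes) and 0 rose (against 24.6%). The median log2 fold change was -0.49. The structural subunits Psmb2 (-0.84 on the log2 scale), Psmb3 (-0.61) and Psmb4 (-0.49) fell, and Psmb1 did not pass at -0.29 (edgeR adjusted p = 0.111). The counts of Psmb3 are uncertain, since 73.6% of its 3′ words occur elsewhere. Psmb6, the caspase-like catalytic subunit, had 289, 285, 268, 295 and 270 normalized CPM in control and 174, 215, 212, 235 and 155 in Trpm7 cKO libraries. All Trpm7 cKO libraries were below all control libraries, at a log2 fold change of -0.49 ± 0.14 (SE, n = 5 and 5, edgeR adjusted p = 0.00646). Psmb5, the chymotrypsin-like subunit, had 32.8, 33.0, 23.6, 22.1 and 22 normalized CPM in control and 18.5, 20.2, 14.6, 24.9 and 16.6 in Trpm7 cKO libraries. Only Trpm7 cKO replicate 4 reached the control range, and the difference did not pass (log2 fold change -0.43 ± 0.26, SE, n = 5 and 5, edgeR adjusted p = 0.177). Psmb5 shares 63.4% of its 3′ words with its pseudogene Psmb5-ps and with Gm3375.

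A pair of beta genes was too low to test. Psmb7, the trypsin-like subunit, had 4, 4, 6, 7 and 0 counts in control and 8, 5, 4, 6 and 0 in Trpm7 cKO libraries, and its 3′ end lies beside Nek6 on the opposite strand. These are few counts for a subunit that every constitutive core particle contains, and they were not detectable as different at this depth. Psmb11, the beta subunit of the thymus, had 1 count in all control libraries together and at most 2 counts in any Trpm7 cKO library, at or under a floor of 3 counts.

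Both tested immunoproteasome genes rose, where 24.6% of all tested genes did. Psmb8 (chr17:34197721-34201454, plus strand, GRCm38), which takes the place of Psmb5, had 3.98, 11.4, 13.9, 8.03 and 6.95 normalized CPM in control libraries. It had 27.7, 33.1, 58.5, 41.4 and 71.7 normalized CPM in Trpm7 cKO libraries, each above every control library. Its log2 fold change was 2.24 ± 0.33 (SE, n = 5 and 5, edgeR adjusted p = 1.36e-05), and it ranged from 1.94 to 2.44 when 1 library or the 2 smallest were left out. These values rest on 4 to 13 counts per control and 13 to 25 counts per Trpm7 cKO library. Psmb8 passed the filter only through the Trpm7 cKO libraries, since 0 of 5 control and 5 of 5 Trpm7 cKO libraries reached its limit of 13.4 CPM. Its fold change and p-value are therefore descriptions and no independent support. Gm20496 lies beside the 3′ end of Psmb8 on the opposite strand.

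Psmb10, which takes the place of Psmb7, had 45.7, 55.8, 42.9, 43.2 and 50.9 normalized CPM in control and 35.1, 58.9, 84.0, 91.1 and 210 in Trpm7 cKO libraries. Trpm7 cKO replicate 5 stood highest, replicate 1 lay below every control library, and the groups overlapped. The log2 fold change was 0.82 ± 0.33 (SE, n = 5 and 5, edgeR adjusted p = 0.0472). This call was lost without control replicate 1, 3, 4 or 5 and without Trpm7 cKO replicate 3, 4 or 5, and without Trpm7 cKO replicate 5 the log2 fold change was 0.47 (edgeR adjusted p = 0.101). It was also lost with limma-voom (log2 fold change 0.59, limma-voom adjusted p = 0.115). Without the 2 smallest libraries the log2 fold change was 0.39 (edgeR adjusted p = 0.217). Gm16156 lies beside the 3′ end of Psmb10 on the opposite strand. Psmb9, which takes the place of Psmb6, had 4, 5, 7, 8 and 6 counts in control and 3, 8, 7, 25 and 10 in Trpm7 cKO libraries and did not pass the filter. On normalized CPM, Psmb9 was at 3.98 to 8.03 in control and at 5.54, 14.7, 25.6, 41.4 and 55.2 in Trpm7 cKO libraries, with replicate 1 inside the control range. At the filter's limit of 13.4 CPM, 0 of 5 control and 4 of 5 Trpm7 cKO libraries held enough of it, so that any fit in which it passes does so through the Trpm7 cKO libraries, and no call is given.

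The immunoproteasome genes took a larger part of the 20S beta counts in every Trpm7 cKO library than in any control library. Psmb8, Psmb9 and Psmb10 together made up 3.27%, 4.90%, 4.32%, 4.05% and 4.52% of the 20S beta counts in control and 6.86%, 10.1%, 13.5%, 13.7% and 24.2% in Trpm7 cKO libraries. Every Trpm7 cKO library was above every control library, with a mean of 13.7% ± 6.52 (SD, n = 5) against 4.21% ± 0.608 (SD, n = 5). Counts of Psmb8 per 100 counts of Psmb5 were 12.1 to 59.1 in control and 150 to 433 in Trpm7 cKO libraries. Psmb9 per 100 Psmb6 counts ran from 1.37 to 2.8 in control and from 3.19 to 35.7 in Trpm7 cKO libraries. The pair of Psmb10 and Psmb7 overlapped and had the lower mean in Trpm7 cKO, with 614 to 1350 Psmb10 counts per 100 Psmb7 counts in control (mean 945) and 237.5 to 917 in Trpm7 cKO libraries (mean 592), over the 4 libraries of each genotype in which Psmb7 had any count, with at most 8 counts of it in a library. Leukocytes express the immunoproteasome constitutively, and the leukocyte marker share in the same Trpm7 cKO libraries was 0.443%, 0.172%, 0.421%, 0.787% and 0.634%. Replicate 2, with the least leukocyte signal of the Trpm7 cKO libraries, had 33.1 normalized CPM of Psmb8, above the control maximum of 13.9. Its leukocyte marker share of 0.172% was also above the highest control share of 0.0747%. With the leukocyte score as a covariate, the log2 fold changes were 1.41 for Psmb8 (edgeR adjusted p = 0.335) and -0.95 for Psmb10 (edgeR adjusted p = 0.497). That score did not overlap between genotypes, so this fit can hardly tell it apart from genotype. The part of other cells in these values was not tested.

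**Figure D3:**
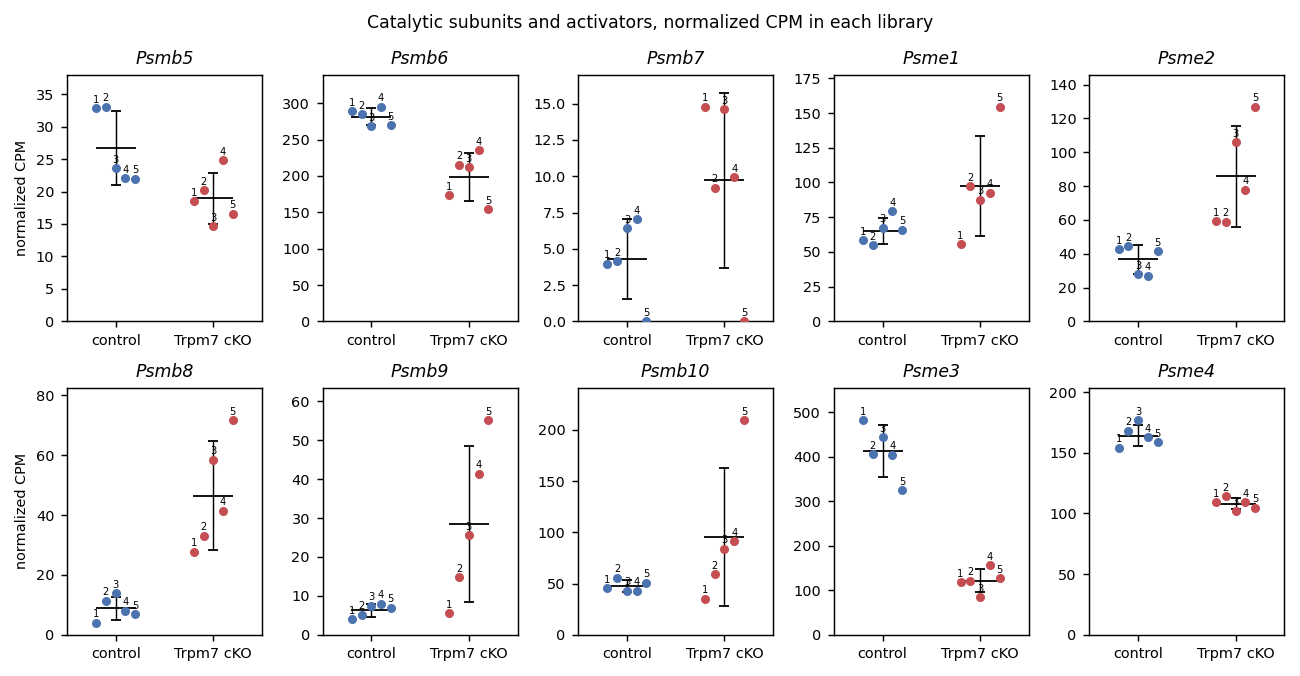
Normalized CPM in each library, from 0, for the catalytic subunits Psmb5, Psmb6 and Psmb7, their immunoproteasome counterparts Psmb8, Psmb9 and Psmb10, and the activators, with numbered points for replicates and bars for the mean and SD of 5 libraries. Psmb8 and Psme2 lie higher in every Trpm7 cKO library, Psmb6, Psme3 and Psme4 lie lower in every one, and Psmb7 and Psmb9 were too low to test.

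Of the 20 genes grouped by symbol with the 19S cap, 9 fell (45%, against 24.1% of all tested genes) and 0 rose (against 24.6%). Sem1, a lid subunit counted among the partners below, rose by 0.33 ± 0.14 on the log2 scale (SE, n = 5 and 5, edgeR adjusted p = 0.04997). That call lay just inside the threshold, and its groups overlapped. The 19S subunit Adrm1 was not tested. Of the 6 ATPases, which form the ring that unfolds the substrate, 3 fell (50%, against 24.1% of all tested genes), 0 rose, and the median log2 fold change was -0.40. Psmc3 had 333, 348, 315, 329 and 348 normalized CPM in control and 201, 210, 186, 191 and 193 in Trpm7 cKO libraries. This was a narrow pair of ranges, and the log2 fold change was -0.77 ± 0.13 (SE, n = 5 and 5, edgeR adjusted p = 4.56e-05), with Slc39a13 beside its 3′ end on the opposite strand. Psmc2 had 97.6 to 142 normalized CPM in control and 60.7 to 92.0 in Trpm7 cKO libraries, without overlap, and fell by 0.64 on the log2 scale (edgeR adjusted p = 0.00275). Psmc6 fell by 0.53 on the log2 scale. At the other end, Psmc1 had 180 to 236 normalized CPM in control and 124 to 237 in Trpm7 cKO libraries (log2 fold change -0.20, edgeR adjusted p = 0.324). Psmc5 had 54.4 to 80.5 and 35.0 to 110 normalized CPM (log2 fold change -0.21, edgeR adjusted p = 0.453), and Psmc4 was at -0.27 on the log2 scale.

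Of the 14 non-ATPase genes grouped by symbol with the 19S cap, 6 fell (42.9%, against 24.1% of all tested genes) and 0 rose (against 24.6%). The median log2 fold change was -0.38. Psmd14 (chr2:61711694-61800376, plus strand, GRCm38) encodes the metalloprotease that cuts ubiquitin chains from the substrate as it enters. It had 493, 392, 505, 470 and 374 normalized CPM in control and 196, 145, 106, 162 and 82.8 in Trpm7 cKO libraries. Trpm7 cKO replicate 5 was lowest and replicate 1 highest, still well below the lowest control library. The log2 fold change was -1.63 ± 0.18 (SE, n = 5 and 5, edgeR adjusted p = 6.53e-07), the mean going from 447 ± 59.9 to 138 ± 44.9 normalized CPM (SD, n = 5 each). Psmd5, an assembly chaperone of the 19S base, had 150, 100, 167, 150 and 128 normalized CPM in control and 75.8, 71.8, 69.4, 51.4 and 38.6 in Trpm7 cKO libraries. The groups did not overlap, and it fell by 1.13 ± 0.19 on the log2 scale (SE, n = 5 and 5, edgeR adjusted p = 5.47e-05). Psmd11, a lid subunit, fell by 1.08 on the log2 scale, from 186 to 283 normalized CPM in control to 95.0 to 121 in Trpm7 cKO libraries.

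Psmd8, Psmd2 and Psmd7 fell by 0.48, 0.45 and 0.38 on the log2 scale. The Psmd2 call was lost without control replicate 2 (edgeR adjusted p = 0.0579) or 5 (0.0653), and 57.7% of its 3′ words occur in Gm5422 or Gm7642. Psmd7 was no longer called without control replicate 2 (edgeR adjusted p = 0.0591), control replicate 5 (0.0564) or Trpm7 cKO replicate 1 (0.0514), or with the replicate block (0.0524). Psmd4, a receptor for ubiquitin chains, had 170, 180, 128, 151 and 161 normalized CPM in control and 140, 180, 161, 152 and 276 in Trpm7 cKO libraries. Replicate 5 stood above all others, replicate 2 (180.3) lay just above the highest control library (179.7) and the other 3 lay within the control range, at a log2 fold change of 0.16 ± 0.17 (SE, n = 5 and 5, edgeR adjusted p = 0.475). Psmd9, a further assembly chaperone of the base, had 16.9 to 22 normalized CPM in control and 18.3 to 27.6 in Trpm7 cKO libraries, at a log2 fold change of 0.26 (edgeR adjusted p = 0.415). The other 6 non-ATPase genes ranged from -0.41 (Psmd6) to -0.08 (Psmd13) on the log2 scale and did not pass. Counts of Psmd14 per 100 counts of Psmd4 were 290, 218, 396, 312 and 232 in control and 139, 80.6, 65.9, 107 and 30 in Trpm7 cKO libraries, without overlap.

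The activators, which bind the ends of the core in place of the cap, split by gene. Psme3 (chr11:101316213-101323537, plus strand, GRCm38) encodes PA28γ, the nuclear activator. It had 482, 406, 444, 405 and 324 normalized CPM in control and 118, 121, 84.0, 156 and 127 in Trpm7 cKO libraries. The highest Trpm7 cKO library was below the lowest control library. This was the lowest log2 fold change of all tested members, -1.74 ± 0.16 (SE, n = 5 and 5, edgeR adjusted p = 9.24e-08), with a range of -1.88 to -1.64 when 1 library or the 2 smallest were left out. Psme4 encodes PA200, the large nuclear activator. It had 154, 168, 177, 163 and 159 normalized CPM in control and 109, 114, 102, 109 and 105 in Trpm7 cKO libraries. Both groups were narrow and apart, and it fell by 0.60 ± 0.13 on the log2 scale (SE, n = 5 and 5, edgeR adjusted p = 0.00102).

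Psme2, which with Psme1 forms the cytosolic PA28 activator, had 42.8, 44.4, 27.9, 27.1 and 41.7 normalized CPM in control and 59.1, 58.9, 106, 77.9 and 127 in Trpm7 cKO libraries. All Trpm7 cKO libraries were above all control libraries, and the gene (chr14:55587441-55591113, minus strand, GRCm38) rose by 1.12 ± 0.23 on the log2 scale (SE, n = 5 and 5, edgeR adjusted p = 0.000507). With the leukocyte score as a covariate its log2 fold change was -0.12 (edgeR adjusted p = 0.941), in a fit that can hardly tell the score apart from genotype. Psme1 had 58.7, 54.7, 67.6, 79.3 and 66.0 normalized CPM in control and 55.4, 97.5, 87.7, 92.8 and 155 in Trpm7 cKO libraries. Replicate 1 lay inside the control range and the other 4 above it, and the log2 fold change of 0.50 ± 0.21 lay just outside the threshold (SE, n = 5 and 5, edgeR adjusted p = 0.0515), passing without control replicate 4 (0.0342) or Trpm7 cKO replicate 1 (0.00907). Psme2b was not tested, with 0, 10, 1, 0 and 0 counts in control and 1, 3, 6, 2 and 4 in Trpm7 cKO libraries. Of its 3′ words, 69.6% occur in Psme2 or Gm7928, and for Psme2 the share in Psme2b or Gm7928 was 68.7%, so that reads of these genes are uncertain. Emc9 lies beside the 3′ end of Psme1 on the opposite strand. Counts of Psme2 per 100 counts of Psme3 were 8.87, 10.9, 6.28, 6.70 and 12.9 in control and 50, 48.5, 126, 50 and 100 in Trpm7 cKO libraries, without overlap.

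The inhibitor Psmf1 (PI31) had 43.8, 26.8, 41.8, 52.2 and 27.8 normalized CPM in control and 25.9, 23.9, 43.8, 24.9 and 22.1 in Trpm7 cKO libraries. Replicate 3 was inside the control range and the other 4 were below it, at a log2 fold change of -0.49 ± 0.26 (SE, n = 5 and 5, edgeR adjusted p = 0.124). Of the 4 assembly chaperones of the core, 2 fell (50%, against 24.1% of all tested genes) and 0 rose (against 24.6%), with a median log2 fold change of -0.57. Psmg3 had 123, 121, 103, 105 and 119 normalized CPM in control and 72.1, 73.6, 51.2, 64.6 and 99.3 in Trpm7 cKO libraries. No library overlapped, and it fell by 0.70 ± 0.16 on the log2 scale (SE, n = 5 and 5, edgeR adjusted p = 0.00159). Psmg2 had 78.7 to 84.7 normalized CPM in control and 33.1 to 63.0 in Trpm7 cKO libraries and fell by 0.66 on the log2 scale (edgeR adjusted p = 0.00419). Psmg1 (-0.48 on the log2 scale) and Psmg4 (-0.16) did not pass. Psmc3ip, which is no proteasome gene, was not tested, with 3 to 15 counts in control and 1 to 9 in Trpm7 cKO libraries.

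Summed over genes, the constitutive particle took a smaller part of the messenger RNA counted in Trpm7 cKO cells. The 48 genes together made up 0.830%, 0.873%, 0.80%, 0.784% and 0.786% of all counts in control and 0.529%, 0.572%, 0.528%, 0.632% and 0.523% in Trpm7 cKO libraries. Every Trpm7 cKO library was below every control library. The 20S genes without the immunoproteasome went from 0.339% ± 0.0152 to 0.208% ± 0.0246 (SD, n = 5 each) and the 19S genes from 0.375% ± 0.0284 to 0.270% ± 0.0225 (SD, n = 5 each), neither with overlap. The activators went from 0.0644% ± 0.00554 to 0.0412% ± 0.00502 (SD, n = 5 each), also without overlap, Psme3 giving most of their counts in control libraries. The immunoproteasome genes went from 0.00598% ± 0.000903 to 0.0163% ± 0.00861 (SD, n = 5 each), and Trpm7 cKO replicate 1, at 0.00705%, lay below control replicate 2, at 0.00734%. Mitochondrial genes took 15.3% ± 1.85 of counts in control and 9.35% ± 0.711 in Trpm7 cKO libraries (SD, n = 5 each), so that shares of the rest had different denominators. Shares are descriptions and were given no test.

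**Figure D4:**
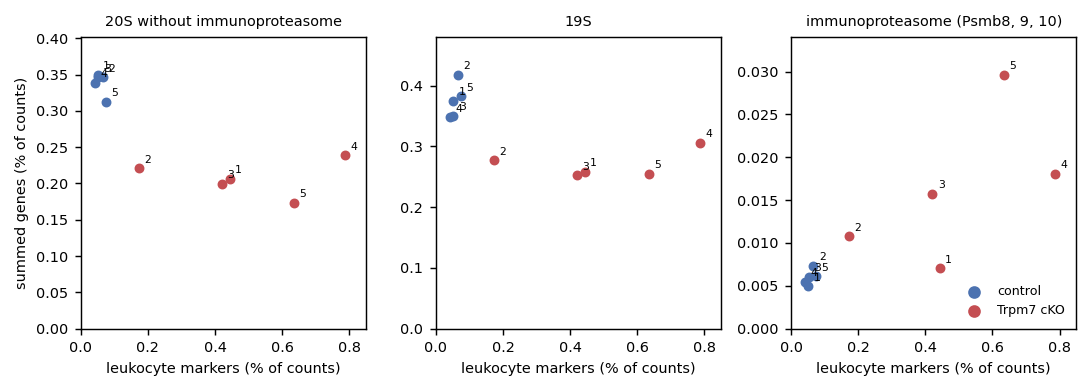
Summed share of counts, in percent, of the 20S genes without the immunoproteasome, the 19S genes and the immunoproteasome genes, against the summed share of leukocyte markers in the same library, with numbered points for replicates of control (blue) and Trpm7 cKO (red). The 20S and 19S shares of Trpm7 cKO replicate 2, at 0.221% and 0.277% with 0.172% leukocyte markers, lie with those of the other Trpm7 cKO libraries, and the immunoproteasome share is highest in replicate 5 at 0.0296%.

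Among the tested members, those with higher levels had the lower fold changes. Across the 44 genes the Spearman correlation of log2 fold change with mean log2 CPM was -0.56, against -0.18 across all 7753 tested genes, values given as descriptions, since all genes share the same 10 libraries and depths.

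Of 27 partners in the ubiquitin-proteasome system, 23 were tested, of which 10 fell (43.5%, against 24.1% of all tested genes), 4 rose (17.4%, against 24.6%) and 9 did not pass, with a median log2 fold change of -0.27. The lowest were Usp14, the deubiquitinase that docks on the cap, at -1.46 ± 0.20 (SE, edgeR adjusted p = 5.86e-06), and Nploc4, a cofactor of the segregase VCP, at -1.30 ± 0.25 (SE, edgeR adjusted p = 0.000251). Pomp, which matures the beta rings, fell by 0.70 ± 0.16 on the log2 scale (SE, edgeR adjusted p = 0.00140), from 415 ± 35.0 to 253 ± 68.2 normalized CPM (SD, n = 5 each). Ubb, a polyubiquitin gene, rose by 0.76 ± 0.14 on the log2 scale (SE, edgeR adjusted p = 0.000175), from 487 ± 50.4 to 830 ± 136 normalized CPM (SD, n = 5 each). It stood higher in every Trpm7 cKO library than in any control library.

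Of 9 transcription factors, partners and processing enzymes that control proteasome genes, 7 were tested, 4 rose (57.1%, against 24.6% of all tested genes), 0 fell and the median log2 fold change was 0.62. Nfe2l1, which encodes NRF1, the factor that raises proteasome genes when proteolysis is limiting, had 65.6 ± 16.6 normalized CPM in control and 90.0 ± 20.8 in Trpm7 cKO libraries (SD, n = 5 each). Its log2 fold change was 0.42 ± 0.21 and did not pass (SE, edgeR adjusted p = 0.104). Nfe2l2 was lowest at -0.20 (edgeR adjusted p = 0.316). Maff, a small Maf partner of these factors, was highest at 2.93 ± 0.23 (SE, edgeR adjusted p = 2.06e-08), and Bach1, a repressor at antioxidant response elements, rose by 1.07 on the log2 scale (edgeR adjusted p = 9.83e-05).

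Of 17 antigen processing and interferon genes, which act with the immunoproteasome, 16 were tested, 14 rose (87.5%, against 24.6% of all tested genes), 0 fell, and the median log2 fold change was 1.20. Irf8 was highest at 2.34 ± 0.19 (SE, edgeR adjusted p = 1.92e-08), followed by Stat2 at 2.05 ± 0.24 (SE, edgeR adjusted p = 1.39e-06). Some of the 14 passed the filter on low counts only through the Trpm7 cKO libraries, such as Stat2 and Tap1. Their control means of 13.1 and 11.2 normalized CPM lay below the filter's limit of 13.4 CPM. These calls are therefore descriptions, and the count of 14 is no independent support. Irf1, the interferon-induced factor that acts on immunoproteasome genes, rose by 1.91 ± 0.18 on the log2 scale (SE, edgeR adjusted p = 1.02e-07), from 92.2 ± 22 to 351 ± 69.7 normalized CPM (SD, n = 5 each). The lowest were the peptide transporter gene Tap2 at -0.07 (edgeR adjusted p = 0.836) and the trimming peptidase gene Erap1 at 0.58 (edgeR adjusted p = 0.137). Leukocytes also express these genes, Irf8 in particular, and the leukocyte markers above stood higher in the same libraries. The part of those cells in the list was not tested.

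Of 14 ubiquitin ligases and adaptors known in muscle, 10 were tested, 3 fell (30%, near the 24.1% of all tested genes), 0 rose, and the median log2 fold change was -0.25. Fbxo32 (atrogin-1), a ligase of muscle atrophy, was lowest at -2.38 ± 0.27 (SE, edgeR adjusted p = 8.05e-07), with 56.8 ± 5.05 normalized CPM in control and 11 ± 4.67 in Trpm7 cKO libraries (SD, n = 5 each). Its Trpm7 cKO values rest on 4, 3, 4, 10 and 2 counts, near the floor of 3 counts. Their mean lay below the filter's limit of 13.4 CPM. Fbxo32 therefore passed the filter only through the control libraries, and its fold change and p-value are descriptions. Nedd4 followed, having fallen by 0.94 on the log2 scale (edgeR adjusted p = 0.00155). The highest values were those of Traf6 at 0.25 (edgeR adjusted p = 0.544) and Trim32 at 0.12 (edgeR adjusted p = 0.685).

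**Figure D5:**
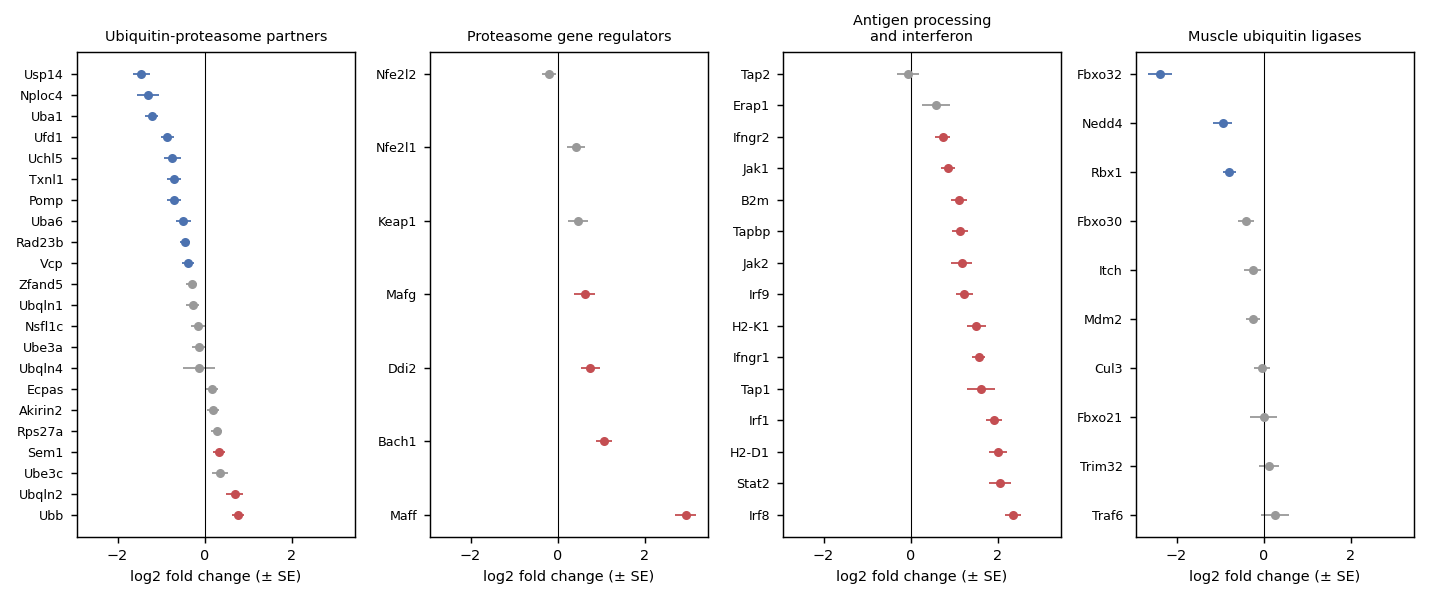
Log2 fold change, Trpm7 cKO over control, with its standard error, of tested genes of 4 lists around the proteasome. Blue points fell and red points rose at an adjusted p below 0.05, and grey points did not pass. Of the genes drawn, antigen processing and interferon genes hold 13 red points of 15, ubiquitin-proteasome partners hold 10 blue and 3 red of 22, regulators hold 4 red of 7, and muscle ubiquitin ligases hold 3 blue of 10.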

How the data were processed

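RNA of 5 control and 5 Trpm7 cKO libraries, each from 3000 sorted MuSCs, was read by CEL-Seq2 at the 3′ end. The authors extracted UMIs with UMI-tools 1.1.4, trimmed with Trim Galore 0.6.10, aligned to GRCm38 with HISAT2 2.2.1, assigned reads with featureCounts 2.0.6 and deposited whole-number UMI counts per gene, not normalized. The annotation release and strand setting are not given in the sources used here. The table held 24620 lines under 24608 symbols, and of a repeated symbol the line with the larger total was kept.

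Groups came from the sample titles. Counts were fitted with edgeR 4.0.16 in R 4.3.3 (filterByExpr with a minimum count of 10 and a minimum total of 15, TMM factors, robust quasi-likelihood F test, genotype as the only term), with Benjamini-Hochberg adjustment over all 7753 genes tested. Standard errors were the log2 fold change divided by the square root of F. CPM intervals were not given, and totals of 205986 to 1097709 counts limit precision, with 3 counts as the floor. The authors' thresholds, an adjusted p below 0.05 and a log2 fold change beyond 1.5, were used as a second rule. The fits were tested on simulated data.

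The members and the lists were chosen with earlier results of these data known. Genes named were the catalytic, immunoproteasome and activator genes, Psmf1, called Psmg genes, untested members, the 2 highest and 2 lowest of other groups and lists, and members past both thresholds, with Nfe2l1, Pomp and Irf1. Single values of 2 list genes are not reported here, although they count in their lists. Others are named beside their counts, having been chosen after their values were seen. Gene positions and shared 31-base words in the last 500 transcript bases came from GENCODE M21, and promoters from RefSeq. Alternatives were DESeq2 1.42.0, limma-voom (limma 3.58.1), other scalings and filters, thinning, a replicate block, a leukocyte covariate and leaving out libraries.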

Additional observations from a re-analysis of the deposited data

Results flagged for a closer look

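In 4 of 110 groups of 5 libraries tested, 1 library lay far from the other 4 on the scale of normalized CPM, and chance gives such a library in about 1 in 20 groups. Psma2 had 161 normalized CPM in Trpm7 cKO replicate 3, where the other libraries of that genotype had 204 to 212. Psma7 had 463 normalized CPM in control replicate 5, where the other control libraries had 543 to 576. Psmc4 had 53.4 normalized CPM in Trpm7 cKO replicate 2, against 38.6 to 42.5 in the others. Psmf1 had 43.8 normalized CPM in Trpm7 cKO replicate 3, against 22.1 to 25.9 in the others, from 12 counts.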

How the results depend on the processing

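Against 22 members that fell and 3 that rose, 22 fell with RLE factors, with a mean of at least 10 counts, with limma-voom and with DESeq2, 20 with total counts alone and 27 of 48 without a filter, and 2 to 4 rose in these. Of all genes, 12.0% fell without a filter and 19.4% to 23.6% in the other fits named, while 13.1% to 27.9% rose. With scaling on MuSC markers, 10 members fell and 4 rose, all genes shifting to a median of 0.20 and the members to -0.23. Of all genes, 12.9% fell and 28.8% rose in that fit. With counts thinned to the smallest library, 14 fell and 2 rose among 38 members left to test, Psmb8 not being among them, where 22.3% of all genes fell and 23.2% rose. With the leukocyte covariate, 1 fell and 0 rose, where 1.81% of all genes fell and 5.13% rose. The covariate did not overlap between genotypes, and the members' median log2 fold change in that fit was -0.62. With the replicate block, 21 fell and 4 rose, where 22.7% of all genes fell and 23.4% rose. Deviations of same-numbered libraries correlated at -0.04, -0.12, -0.07, 0.06 and 0.18. These values were not set against differently numbered libraries, so they do not settle whether the numbers pair libraries. Leaving out 1 library gave 20 to 23 members that fell and 2 to 5 that rose, where 20.5% to 23.6% of all genes fell and 22.7% to 25.9% rose. The 5 were reached without Trpm7 cKO replicate 1, when Psmb9 passed the filter through the other Trpm7 cKO libraries. Without the 2 smallest libraries, an alternative chosen after seeing the data, 23 fell and 2 rose, where 19.4% of all genes fell and 21.5% rose. At an adjusted p below 0.01, 20 fell and 2 rose, and the share of all genes at that threshold was not counted.

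Of 918 values of single genes, 809 kept direction and side of the threshold, 20 passed it, 59 no longer passed and 30 changed sign. Changes of sign, as log2 fold changes, were as follows. With the leukocyte covariate these were Psma3 at 0.24, Psma4 at 0.30, Psmb10 at -0.95, Psmc4 at 0.27, Psmd4 at -0.16, Psmd6 at 0.082, Psmd10 at 0.22, Psme2 at -0.12, Psmf1 at 0.13 and Psmg4 at 1.41. With MuSC marker scaling these were Psma4 at 0.16, Psmc1 at 0.037, Psmc5 at 0.022, Psmd3 at 0.14, Psmd10 at 0.00033, Psmd13 at 0.18 and Psmg4 at 0.027. With total counts alone Psma4 was at 0.047 and Psmd13 at 0.0020, with thinned counts Psmc5 was at 0.11 and Psmd3 at 0.035, and without a filter Psmd4 was at -0.055. Leaving out 1 library gave ranges of -0.28 to 0.074 for Psma4, -0.23 to 0.0071 for Psmd3 and -0.26 to 0.038 for Psmd13, and without the 2 smallest libraries Psma4 was at 0.10. The cause was not tested. Small libraries limit low genes most, 3 counts being 14.6 CPM in the smallest.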
